A study of Mus musculus with 9 samples.

Results

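The genes of the spliceosome core and of the SR protein family were taken from the deposited expression tables by symbol. The pattern took the Snrp genes of the Sm ring and of the U1 and U2 particles, all Snrnp genes with a number, and the Sf3a, Sf3b, Prpf, Srsf, U2af and Lsm genes. It found 65 of the 55335 entries. Transcripts had been measured in pools of 8-cell mouse embryos of the ICR strain, made by in vitro fertilization, injected with siRNA at the zygote stage. Nontargeting siRNA was given to the control embryos. MFN1-KD embryos were given siRNA against *Mfn1*, which encodes a fusion protein of the outer mitochondrial membrane, and H3.3-KD embryos siRNA against *H3f3a* and *H3f3b*, which both encode histone H3.3. Each group had 3 libraries, and each library was 1 pool. The labels give 5 to 10 embryos per group, whereas the study's methods give 10, so the number behind each library is uncertain. The study describes the libraries of a group as biological replicates. Whether they came from separate injections is not given in the sources used here, and the p-values measure the spread between these libraries.

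Splicing is carried out by small nuclear ribonucleoproteins, each built on one of the snRNAs. A ring of Sm proteins closes around U1, U2, U4 and U5 snRNA, while a ring of Lsm proteins holds the end of U6. U1 reads the 5′ splice site, the U2AF dimer and U2 read the 3′ splice site and the branch point, and the U4/U6.U5 tri-snRNP then brings in the catalytic parts. SR proteins bind exons and recruit these particles, which makes the choice of splice sites depend on their levels. In mouse, the embryonic genome takes over from maternal transcripts in the cleavage stages before the one measured here. The libraries were primed with oligo-dT, so they report the protein-coding transcripts of the spliceosome and not its snRNAs.

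Promoters of 54 of the 65 genes were found in RefSeq sequence (GRCm38.p6, 250 bases before to 50 bases after the start). Those of 2 genes with large rises and 2 with large falls in H3.3-KD are shown, so that the sequence at the start of genes that moved in opposite directions can be compared. They are printed 5′ to 3′ on the strand of the gene, and capitals mark 3 motifs on either strand, the GC box GGGCGG, the ETS core CCGGAAG and CCAAT. *Prpf19* (chr19:10894981-10895280, plus strand) and *Sf3a2* (chr10:80798485-80798784, plus strand) rose, whereas *Lsm5* (chr6:56704650-56704949, minus strand) and *Snrpf* (chr10:93589609-93589908, minus strand) fell. None of the 3 motifs was in all 4 of these promoters: *Prpf19* had CCAAT and the ETS core, *Sf3a2* the GC box and the ETS core, *Lsm5* all 3 motifs and *Snrpf* CCAAT alone.
Prpf19: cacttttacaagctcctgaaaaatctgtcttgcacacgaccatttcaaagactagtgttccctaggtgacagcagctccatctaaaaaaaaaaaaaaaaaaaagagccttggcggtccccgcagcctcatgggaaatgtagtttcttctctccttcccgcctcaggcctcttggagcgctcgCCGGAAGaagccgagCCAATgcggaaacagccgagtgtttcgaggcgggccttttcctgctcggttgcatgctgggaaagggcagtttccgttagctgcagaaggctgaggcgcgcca
Sf3a2: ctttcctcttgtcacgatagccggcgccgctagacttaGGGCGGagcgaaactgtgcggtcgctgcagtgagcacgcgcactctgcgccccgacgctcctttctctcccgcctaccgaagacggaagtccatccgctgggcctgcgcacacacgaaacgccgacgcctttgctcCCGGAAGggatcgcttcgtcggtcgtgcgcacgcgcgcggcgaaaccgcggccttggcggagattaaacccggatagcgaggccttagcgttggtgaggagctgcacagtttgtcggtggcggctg
Lsm5: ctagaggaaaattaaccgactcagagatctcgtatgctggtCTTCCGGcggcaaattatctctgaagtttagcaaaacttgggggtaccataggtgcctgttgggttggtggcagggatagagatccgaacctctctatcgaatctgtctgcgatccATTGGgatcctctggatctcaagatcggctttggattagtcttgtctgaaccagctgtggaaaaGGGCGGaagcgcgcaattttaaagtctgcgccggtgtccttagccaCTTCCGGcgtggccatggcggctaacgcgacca
Snrpf: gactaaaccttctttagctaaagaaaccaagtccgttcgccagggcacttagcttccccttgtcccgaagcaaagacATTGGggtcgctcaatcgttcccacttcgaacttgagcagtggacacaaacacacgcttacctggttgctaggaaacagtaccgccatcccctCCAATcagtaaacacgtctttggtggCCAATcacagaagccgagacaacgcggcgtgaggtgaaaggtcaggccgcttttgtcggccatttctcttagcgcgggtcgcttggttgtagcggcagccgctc

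A GC box, GGGCGG on either strand, was in 40 of the 54 promoters (74.1%), against 35.9% of the 27025 promoters of the table. The ETS core was in 20 (37%), against 9.12% of all, and the NRF1 core GCGCATGC in 6 (11.1%), against 2.8%. CCAAT was in 38.9%, close to the 37.9% of all promoters. TATAAA was in 9.26%, against 14.2%, CACGTG in 7.41%, against 7.24%, and TGACGTCA in 3.7%, against 1.88%. The median number of CpG in the window was 24 in these genes and 7 in all. It was 23 in the 18 promoters of genes that rose in H3.3-KD and 23 in the 18 of genes that fell. The GC box was in 83.3% of the former and 72.2% of the latter, and the ETS core was in 44.4% of each. The 27025 promoters include those of genes that were not tested here, and shares over tested genes alone are not given. A match of letters is not a measured binding site, and binding was not measured in these files.

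Values were FPKM, which divides the fragments of a gene by the length of the gene and by the total of the library. Levels of different genes can therefore be compared only roughly, since GC content and pseudogene copies may still shift them. The FPKM of a library summed to 1113563 to 1331977 in control, 1130408 to 1203650 in MFN1-KD and 933452 to 968604 in H3.3-KD. Read counts were not used here and the depth of the libraries is unknown. Between 15577 and 24820 genes were above 0 in a library, fewest in replicate 3 of MFN1-KD, whose own group otherwise had 19250 and 20842. The knockdowns were seen in the files: *Mfn1* was at 15.4% of control in MFN1-KD, while *H3f3a* and *H3f3b* were at 7.72% and 8.24% in H3.3-KD. Markers of the 8-cell embryo all had a mean above 1 FPKM over the 9 libraries. *Cdx2* did so only through H3.3-KD (0.57 to 6.24 FPKM, against 0.06 to 0.09 in control and 0 to 0.06 in MFN1-KD). The summed level of these markers was 281 to 336 FPKM in control, 284 to 321 in MFN1-KD and 782 to 1027 in H3.3-KD. In H3.3-KD *Pou5f1* was at 63.1 to 392 FPKM (5.1 to 8.9 in control) and *Klf17* at 195 to 401 (29.8 to 50.1). *Sall4* went the other way, at 42.7 to 50.7 FPKM (106 to 139 in control), and *Nanog* did not rise. Of 10 markers of cumulus and granulosa cells, 3 (*Fshr*, *Inhba* and *Hsd3b1*) were listed at 0 in every library and 9 stayed under 1 FPKM. The list summed to 16.1 to 29.8 FPKM in control, 10.3 to 19.3 in MFN1-KD and 38.2 to 67.3 in H3.3-KD, nearly all of it *Amhr2*. The 5 sperm markers summed to at most 2.93 FPKM. The part of these marker levels in the results was not tested. In pools, fewer cells of a type and less RNA per cell cannot be told apart.

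Of the 65 genes, 63 passed the filter of a mean of at least 1 FPKM and were tested with limma on log2(FPKM + 1), with Benjamini-Hochberg adjustment over all 13011 genes tested. Of the 63, *Sf3a2* passed this filter only through its H3.3-KD libraries. *Srsf12* was listed at 0 in 8 of the 9 libraries, and *Prpf40b* stayed just under the filter. The 65 genes together took 1.02% to 1.22% of the FPKM of a library. In H3.3-KD, 20 of the 63 were higher at an adjusted p under 0.05 (31.7%, against 21.8% of all genes tested) and 20 were lower (31.7%, against 9.12%), which left 23 that did not pass. With a change of over 2-fold and an unadjusted p under 0.05, 16 were higher (25.4%, against 23.9% of all genes) and 18 lower (28.6%, against 9.39%). The share of higher members was thus close to that of all genes. The 3 libraries lay wholly above the controls for 21 members (33.3%, against 34.5% of all genes) and wholly below them for 22 (34.9%, against 18.9%). Over all genes the log2 fold change had a median of 0.26 in this comparison, and median-ratio scaling of the libraries moved it to -0.00. Under that scaling 13 members were higher and 21 lower (38.2% of calls higher, against 50% as first scaled), and under upper-quartile scaling 12 and 23. Scaling moves all genes of a library together, to a median of -0.07 under the upper quartile. The shares of all genes called under these scalings are not given, so this shift cannot be read as particular to the members. The count of higher members also fell to 13 without control replicate 2 and to 13 without control replicate 3. Of the calls, 11 of the 20 higher and 16 of the 20 lower held under all 19 alternatives tried. *Sf3a2* is one of the 11, and its call was fixed by the filter.

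**Figure D1:**
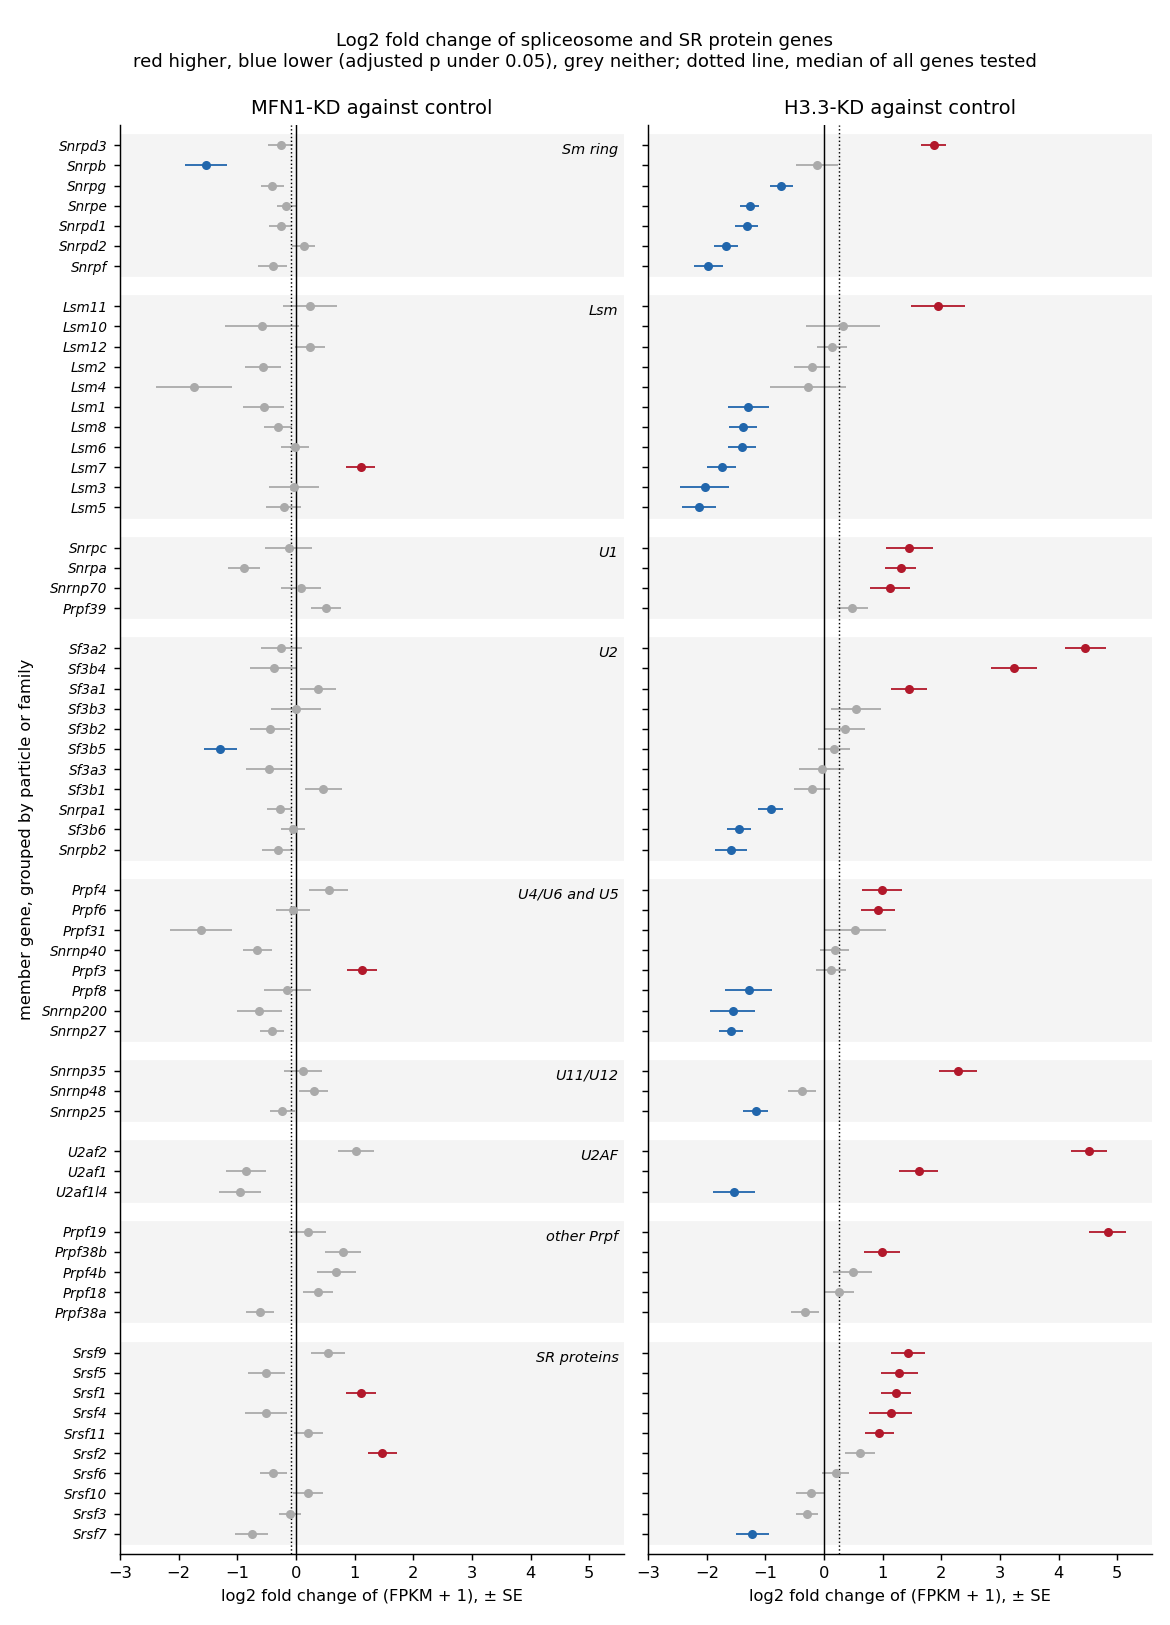
Log2 fold change of FPKM + 1 for tested spliceosome and SR protein genes (points, with bars of 1 SE), by particle or family, with MFN1-KD at the left and H3.3-KD at the right, each against control. In H3.3-KD 20 genes were higher (red, 31.7%, against 21.8% of all genes tested) and 20 lower (blue, 31.7%, against 9.12%). Among them, 5 of 7 Sm and 6 of 11 Lsm genes were lower and 3 of 4 U1 genes higher. In MFN1-KD 4 were higher (6.35%, against 1.15% of all genes) and 2 lower (3.17%, against 2.2%).

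The largest rise in H3.3-KD was that of *Prpf19* (chr19:10895231-10909559, GRCm38), whose product is the ubiquitin ligase at the centre of the complex that joins the spliceosome at its activation. It was at 1.89, 2.05 and 1.34 FPKM in the control libraries, 1.84, 3.47 and 1.44 in MFN1-KD and 77.6, 85.4 and 70.1 in H3.3-KD. All H3.3-KD libraries were far above the other 6, and the mean level was 44.1 times that of control (log2 fold change 4.84 ± 0.32 (SE), adjusted p = 1.56e-05). Of the 3 U2AF genes, 2 rose as well, against 21.8% of all genes tested. *U2af2* (chr7:5062143-5079938) encodes the large subunit, which binds the polypyrimidine tract, and was at 10.1, 7.38 and 4.28 FPKM in control, 11.9, 16.6 and 17.3 in MFN1-KD and 175, 187 and 178 in H3.3-KD. The 3 H3.3-KD values lay close together and averaged 24.8 times the control mean (log2 fold change 4.52 ± 0.30 (SE), adjusted p = 1.97e-05). *U2af1*, the small subunit that reads the AG at the end of the intron, went from 74.9, 89.7 and 79.6 FPKM to 248, 244 and 259.8 (log2 fold change 1.61 ± 0.34 (SE), adjusted p = 0.00527). *U2af1l4*, a paralogue of *U2af1*, went the other way. It was at 77.2, 82.1 and 90 FPKM in control, 51.2, 61.9 and 23.4 in MFN1-KD and 33.7, 32.6 and 20.0 in H3.3-KD (log2 fold change -1.53 ± 0.36 (SE), adjusted p = 0.00937). On the annotation 65.6% of its exon bases are shared with *Gm49396* on the same strand, an entry at a mean of 0.11 FPKM in control and 0.407 in H3.3-KD. The level of *U2af1* over that of *U2af2* in a library was 12.7 ± 5.63 (SD, n = 3) in control, 3.38 ± 1.89 in the MFN1-KD libraries and 1.4 ± 0.0795 in those of H3.3-KD.

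The U2 particle, which holds the branch point, held changes in both directions in H3.3-KD. Of its 11 genes, 3 were higher, *Sf3a2* among them, and 3 lower, against 21.8% and 9.12% of all genes tested. The remaining 5 did not pass. *Sf3a2* (chr10:80798198-80804924), a subunit of SF3a, was at 0.48, 0.18 and 0.38 FPKM in control and at 0.07, 0.34 and 0 in MFN1-KD, against 43.1, 26.6 and 19.9 in H3.3-KD. It was barely listed outside H3.3-KD, where every library was at 19.9 FPKM or more, a fitted log2 fold change of 4.46 ± 0.35 (SE). Only these libraries brought it past the filters of 1 FPKM for testing and 10 FPKM for naming, so it had to differ and its p-value is not given. The latter filter was passed in the same way by *Prpf19* and *Snrnp35*. *Sf3a2* shares 16.1% of its exon bases with *Plekhj1* on the opposite strand, which was at a mean of 37.8 FPKM in control and 82.3 in H3.3-KD, and the strand setting of the counting is not given in the sources used here. *Sf3b4* (chr3:96172332-96177564), a subunit of SF3b that contacts the RNA before the branch point, was at 17, 7.59 and 10.0 FPKM in control and 127, 115 and 96.2 in H3.3-KD (log2 fold change 3.24 ± 0.40 (SE), adjusted p = 0.00036). *Sf3a1* rose from 14.6, 9.22 and 7.27 to 29.7, 29.3 and 28.1 FPKM (log2 fold change 1.45 ± 0.31 (SE), adjusted p = 0.00589).

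The 3 U2 genes that fell were those with the highest control levels of the particle. *Sf3b6*, which encodes the small subunit beside the branch adenosine, was the most abundant of them. It was at 386, 384 and 476 FPKM in control, 349, 502 and 362 in MFN1-KD and 152, 137 and 164 in H3.3-KD (log2 fold change -1.45 ± 0.21 (SE), adjusted p = 0.000711). *Snrpb2* and *Snrpa1*, the pair of proteins on a stem loop of U2 snRNA, fell with log2 fold changes of -1.59 ± 0.27 and -0.91 ± 0.21 (adjusted p = 0.00188 and 0.00946). The largest subunit of SF3b, *Sf3b1*, was at 135 ± 18.1 FPKM in control and 118 ± 22.7 in H3.3-KD, with overlapping libraries, and *Sf3a3*, *Sf3b2*, *Sf3b3* and *Sf3b5* did not pass either. The level of *Sf3b6* over *Sf3b4* was 40.3 ± 15.3 in control, 53.7 ± 27.8 in the MFN1-KD libraries and 1.36 ± 0.295 in those of H3.3-KD (SD, n = 3).

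**Figure D2:**
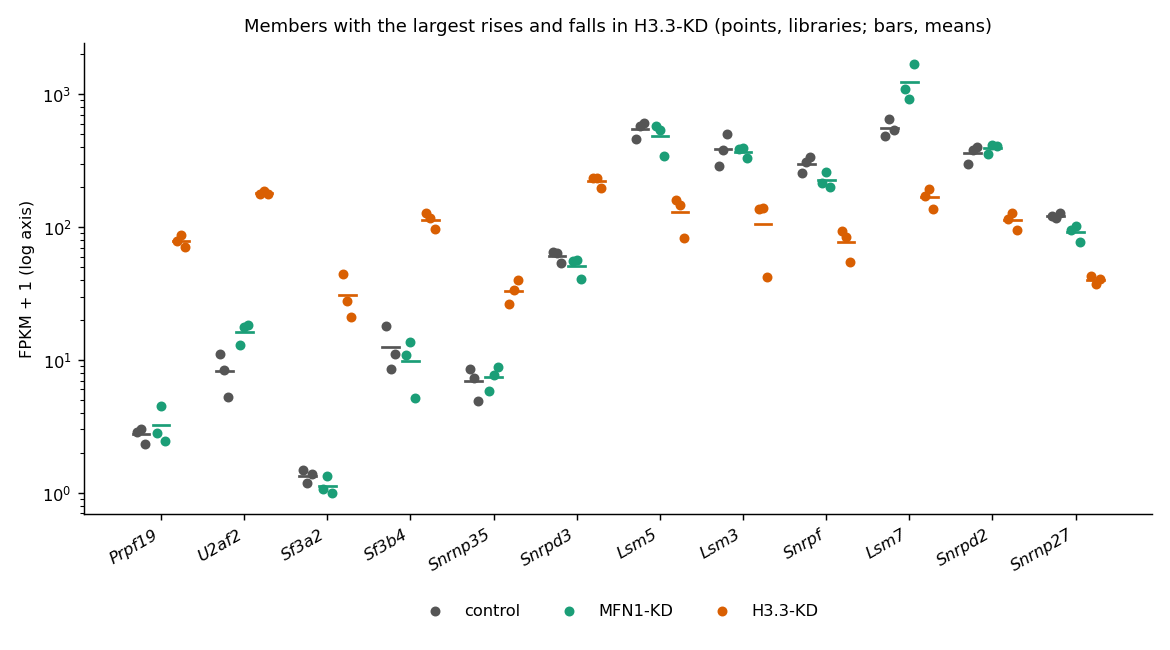
FPKM + 1 (log axis) in each library for the 6 members with the largest rises and the 6 with the largest falls in H3.3-KD among those called with a mean of at least 10 FPKM (points, libraries; bars, means of 3). The orange H3.3-KD points of all 12 genes lie outside the range of the grey control points, above it for *Prpf19* to *Snrpd3* and below it for *Lsm5* to *Snrnp27*.

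Most genes of the Sm ring fell. Of the 7, 5 were lower in H3.3-KD (9.12% of all genes tested), *Snrpd3* was higher (21.8% of all genes tested) and *Snrpb* did not pass. *Snrpe*, the most abundant of all 65 genes, was at 2753, 3654 and 3616 FPKM in control, 2840.3, 2775 and 3248 in MFN1-KD and 1421, 1368 and 1330.0 in H3.3-KD. Each H3.3-KD library held less than any of the other 6 (log2 fold change -1.27 ± 0.16 (SE), adjusted p = 0.000462). *Snrpf* went from 252, 305 and 333 FPKM to 92.2, 83.5 and 53.4 (log2 fold change -1.97 ± 0.25 (SE), adjusted p = 0.000406). *Snrpd2* went from 299, 377 and 402 FPKM to 115, 128 and 93.8 (log2 fold change -1.67 ± 0.20 (SE), adjusted p = 0.000348), and *Snrpd1*, its partner in the D1-D2 dimer of the ring, fell by a log2 fold change of -1.32 ± 0.20 (adjusted p = 0.000932). Of the 5, *Snrpg* fell least (log2 fold change -0.73 ± 0.20 (SE), adjusted p = 0.0173).

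*Snrpd3* (chr10:75517551-75537381), which pairs with SmB in the same ring, was the exception. It was at 63.5, 62.3 and 52.8 FPKM in control, 54.2, 55.3 and 39.8 in MFN1-KD and 231, 231 and 196 in H3.3-KD, and the H3.3-KD libraries averaged 3.69 times the control mean (log2 fold change 1.87 ± 0.22 (SE), adjusted p = 0.000284). Its partner *Snrpb* was at 409, 373 and 450.4 FPKM, against 385, 497 and 466 in control (log2 fold change -0.12 ± 0.36 (SE), adjusted p = 0.822). The levels within the ring lay closer together in H3.3-KD. The highest member over the lowest was 56.9 ± 12.7 in control, 61.4 ± 17.6 in the MFN1-KD libraries and 18.9 ± 5.24 in those of H3.3-KD (SD, n = 3), and *Snrpd2* over *Snrpd3* was 6.13 ± 1.45, 8.07 ± 1.96 and 0.509 ± 0.0384. The median log2 fold change of the 7 genes was -1.53 relative to the median of all genes. With the trend over GC content and transcript length removed from each library it was -0.57, and the calls of *Snrpe* and *Snrpg* were lost (adjusted p up to 0.098). The *Snrpg* call also ended without control replicate 2, control replicate 3 or H3.3-KD replicate 3. Pseudogene copies with at least 90% identity are listed separately in the files and may have taken reads. Their summed level was 13.5%, 12.6% and 16% of that of *Snrpe* in control, MFN1-KD and H3.3-KD, 39%, 59.8% and 70.7% of that of *Snrpf* and 49%, 42.2% and 58.9% of that of *Snrpg*, so the levels of these genes are uncertain.

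**Figure D3:**
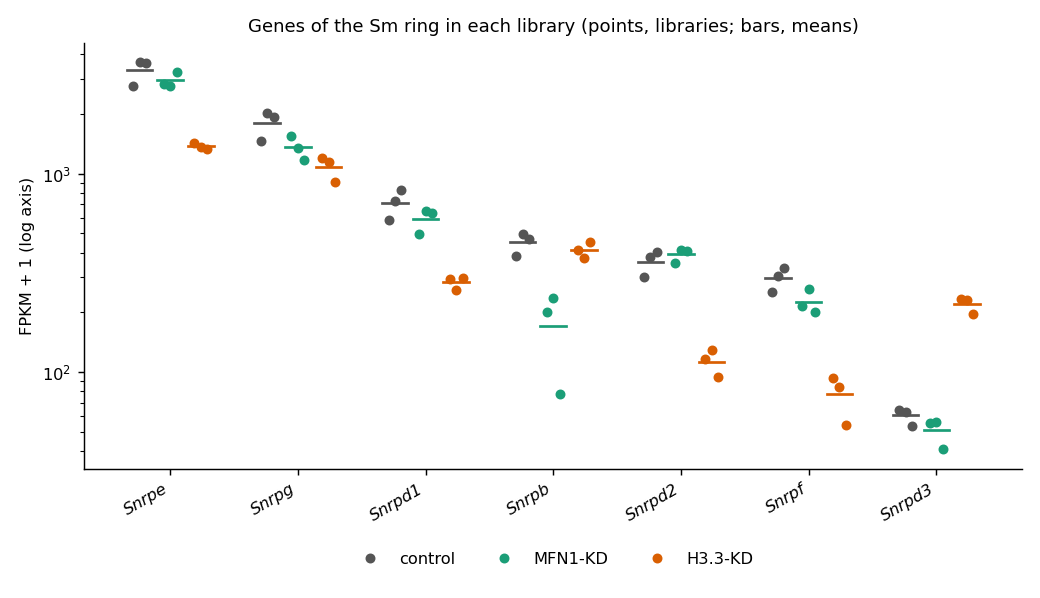
FPKM + 1 (log axis) of the 7 Sm ring genes in each library (points, libraries; bars, means of 3), ordered by control level. *Snrpd3*, the lowest in control, was above control in all 3 H3.3-KD libraries, *Snrpb* overlapped control, and the other 5 were below control.

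Of the 11 Lsm genes tested, 6 were lower in H3.3-KD and 1 was higher, against 9.12% and 21.8% of all genes tested, and 4 did not pass. Their median log2 fold change was -1.55 relative to all genes. *Lsm5* had the largest fall of all 63 members. It was at 458, 579 and 607 FPKM in control, 573, 534 and 340.2 in MFN1-KD and 158, 145 and 81.4 in H3.3-KD (log2 fold change -2.13 ± 0.29 (SE), adjusted p = 0.00063), and its pseudogene copies were at 35.3% to 37.7% of its level in the 3 groups. *Lsm3* went from 285, 379 and 496 FPKM to 135, 138 and 40.8, with replicate 3 of H3.3-KD well below the other two (log2 fold change -2.03 ± 0.42 (SE), adjusted p = 0.00515). *Lsm6*, *Lsm7* and *Lsm8*, also of the U6 ring, fell with log2 fold changes of -1.40 ± 0.24, -1.75 ± 0.25 and -1.39 ± 0.24 (adjusted p = 0.00189, 0.000756 and 0.00208). The remaining members of that ring, *Lsm2* and *Lsm4*, had values of 255 ± 18.8 and 89.9 ± 13.6 FPKM in control and 224 ± 55.1 and 73.9 ± 9.52 in H3.3-KD, and neither passed. *Lsm12*, which belongs to neither ring, did not pass either.

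*Lsm1*, which replaces *Lsm8* in the cytoplasmic ring that acts in mRNA decay, fell from 33.4, 20.5 and 23.6 to 10.1, 10.2 and 8.97 FPKM (log2 fold change -1.29 ± 0.35 (SE), adjusted p = 0.0191). That call ended without the filter on low values and without control replicate 1, control replicate 3 or H3.3-KD replicate 3 (adjusted p up to 0.0675). The single rise of an Lsm gene was in *Lsm11*, which belongs to the U7 particle that processes histone mRNA. It was low, at 1.2, 0.75 and 0.37 FPKM in control and 6.82, 6.48 and 4.12 in H3.3-KD (log2 fold change 1.94 ± 0.46 (SE), adjusted p = 0.00995). With a pseudocount of 0.1 the call was lost (adjusted p = 0.0583). Pseudogene copies of *Lsm11* were at 59.5% of its level in control and 0.631% in H3.3-KD. *Lsm10*, the other Lsm protein of U7, was at 16.5, 19.4 and 23.2 FPKM in control and 17.9, 27 and 30.8 in H3.3-KD and did not pass.

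Of the 4 genes of the U1 particle, which pairs with the 5′ splice site, 3 were higher in H3.3-KD, against 21.8% of all genes tested. These were *Snrpc*, *Snrpa* and *Snrnp70*, the proteins particular to U1, whereas the U1-associated *Prpf39* did not pass (log2 fold change 0.48 ± 0.26 (SE), adjusted p = 0.186). *Snrpc* had the highest control level, at 398, 202 and 293 FPKM. It was at 635, 658 and 1163 in H3.3-KD, and every one of these libraries was above the controls (log2 fold change 1.45 ± 0.40 (SE), adjusted p = 0.0202). *Snrpa* was at 100.5, 86.9 and 92.6 FPKM in control, 48.1, 59.6 and 42.8 in MFN1-KD and 157, 256 and 308 in H3.3-KD, 3 ranges that did not overlap (log2 fold change 1.30 ± 0.27 (SE), adjusted p = 0.00513). *Snrnp70* went from 47.9, 62.2 and 49.9 to 91.5, 103 and 168 FPKM (log2 fold change 1.13 ± 0.34 (SE), adjusted p = 0.0292). Its log2 fold change was -0.046 with the GC and length trend removed, and the call also ended under both other scalings and without the filter on low values. The *Snrpc* call ended under upper-quartile scaling, without the filter, and with the replicate block and trend removal together. Leaving out a single library ended the *Snrnp70* call for any control library and for replicates 2 and 3 of H3.3-KD, and the *Snrpc* call for control replicates 2 and 3 and H3.3-KD replicate 3 (adjusted p up to 0.0828 for *Snrpc*).

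In the U4/U6.U5 tri-snRNP, 2 of 8 genes were higher and 3 lower, against 21.8% and 9.12% of all genes tested. *Snrnp27*, a protein of the assembled tri-snRNP, fell from 119.6, 115 and 126 FPKM to 42.1, 36.3 and 39.4 (log2 fold change -1.59 ± 0.20 (SE), adjusted p = 0.000462). *Snrnp200*, the helicase that unwinds U4 from U6, fell from 28.7, 22.2 and 16.7 to 7.08, 7.65 and 5.78 FPKM (log2 fold change -1.56 ± 0.38 (SE), adjusted p = 0.0117). *Prpf8*, the U5 protein at the catalytic core, fell from 24.7, 13.4 and 13.7 to 6.15, 5.89 and 6.53 FPKM (log2 fold change -1.29 ± 0.40 (SE), adjusted p = 0.0334). The 3 H3.3-KD values of each of these genes were below all controls. *Prpf4* and *Prpf6* were higher, with log2 fold changes of 0.99 ± 0.34 and 0.92 ± 0.29 (adjusted p = 0.0467 and 0.035). Both of these calls were lost under median-ratio and upper-quartile scaling and with the GC and length trend removed, where *Prpf6* was at 0.11 (adjusted p up to 0.818). The calls of *Prpf8*, *Prpf4* and *Prpf6* were lost without the filter on low values, without control replicate 2, without control replicate 3 and without H3.3-KD replicate 1 or 2. *Prpf8* was also lost without control replicate 1, and *Prpf8* and *Prpf4* without H3.3-KD replicate 3. That of *Prpf4* ended too with a pseudocount of 0.1 and with the replicate block. *Prpf3*, *Prpf31* and *Snrnp40* did not pass.

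The U11 particle, the counterpart of U1 in the minor spliceosome, held opposite changes. *Snrnp35* was at 7.62, 6.28 and 3.93 FPKM in control, 4.85, 6.75 and 7.81 in MFN1-KD and 25.3, 32.4 and 39.2 in H3.3-KD (log2 fold change 2.28 ± 0.33 (SE), adjusted p = 0.000737). *Snrnp25*, the most abundant of the 3 genes in control, was at 135, 178 and 172 FPKM in control, 126, 159 and 127 in MFN1-KD and 60.1, 80.8 and 73.3 in H3.3-KD (log2 fold change -1.17 ± 0.22 (SE), adjusted p = 0.00311). The H3.3-KD libraries of these genes did not overlap the other groups. *Snrnp48* did not pass (log2 fold change -0.37 ± 0.24 (SE), adjusted p = 0.273). Of the other Prpf genes, *Prpf38b* rose along with *Prpf19* (log2 fold change 0.99 ± 0.31 (SE), adjusted p = 0.0335), a call that ended without control replicate 2, control replicate 3 or any H3.3-KD library. It ended as well under both other scalings, without the filter and with the replicate block, with a log2 fold change of 0.59 under upper-quartile scaling. *Prpf38a*, which joins the spliceosome before activation and had the highest control level of these genes, was at 146, 144 and 151 FPKM in control, 106, 120.4 and 69 in MFN1-KD and 98, 131 and 124 in H3.3-KD (log2 fold change -0.33 ± 0.24 (SE), adjusted p = 0.336). It passed only under median-ratio and upper-quartile scaling. *Prpf18* and the kinase *Prpf4b* did not pass either.

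Of 10 SR protein genes, 5 were higher and 1 was lower, against 21.8% and 9.12% of all genes tested, and 4 did not pass. Their median log2 fold change was 0.51 relative to all genes, or 0.25 with the GC and length trend removed, and 6 of the 10 lay above the median of all genes. *Srsf1*, long used as the model SR protein, was at 141, 109 and 83.2 FPKM in control and 214, 218 and 354 in H3.3-KD (log2 fold change 1.22 ± 0.26 (SE), adjusted p = 0.00594). *Srsf9*, its close relative, went from 66.2, 59.1 and 48.9 to 159, 234 and 104 FPKM (log2 fold change 1.43 ± 0.29 (SE), adjusted p = 0.00451). Both sets of libraries were apart from control. *Srsf5*, *Srsf4* and *Srsf11* rose with log2 fold changes of 1.28 ± 0.32, 1.13 ± 0.36 and 0.94 ± 0.25 (adjusted p = 0.0119, 0.0359 and 0.0173), and these 3 calls were lost under both other scalings. Those of *Srsf4* and *Srsf11* were lost as well with the GC and length trend removed and without control replicate 2, control replicate 3 or H3.3-KD replicate 3, and that of *Srsf4* without the filter or any one H3.3-KD library. *Srsf7*, the most abundant SR gene in control, was the one that fell. It was at 706, 986 and 917 FPKM in control, 699, 548 and 347 in MFN1-KD and 314, 336 and 473 in H3.3-KD (log2 fold change -1.22 ± 0.28 (SE), adjusted p = 0.00801). *Srsf7* over *Srsf1* was 8.37 ± 3.06 in control, 2.25 ± 0.682 in the MFN1-KD libraries and 1.45 ± 0.102 in those of H3.3-KD (SD, n = 3). *Srsf3*, the closest relative of *Srsf7*, was at 263, 210.3 and 251 FPKM, against 252, 302 and 334 in control (log2 fold change -0.29 ± 0.19 (SE), adjusted p = 0.275).

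Across the 63 genes, levels drew together in H3.3-KD. *Sf3a2* is among them although only its H3.3-KD libraries brought it past the filter, so its low control level adds to the control spread by selection. The spread without it is not given. The SD of log2(FPKM + 1) over the genes was 2.17 to 2.49 in the control libraries, 2.22 to 2.52 in MFN1-KD and 1.65 to 1.79 in H3.3-KD. Over all 13011 genes tested it was 2.35 to 2.44 in control and 2.3 to 2.37 in H3.3-KD, with overlapping ranges. The interquartile range of the 63 log2 levels was 3.46 ± 0.333 in control and 2.33 ± 0.131 in H3.3-KD (SD, n = 3). *Snrpe* and *Snrpg* alone took 35.4% ± 2.49 of the summed FPKM of these genes in control and 24% ± 2.44 in H3.3-KD. The genes that rose had a median control level of 16.1 FPKM (0.347 to 298), those that fell 345 FPKM (17.2 to 3341) and those that did not pass 61.6 FPKM. The same control libraries enter these levels and the calls, so the split is a description of the genes called. Pearson's r of the log2 levels of the 63 genes was 0.987 to 0.995 between control libraries, 0.956 to 0.985 between H3.3-KD libraries and 0.694 to 0.756 between libraries of control and H3.3-KD.

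**Figure D4:**
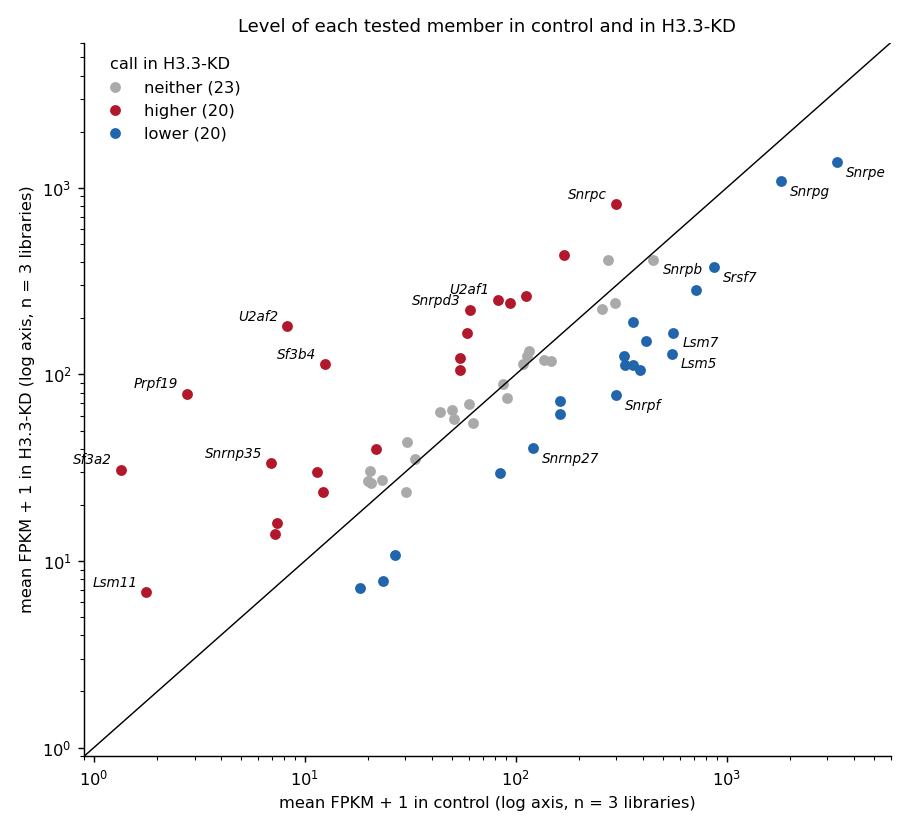
Mean FPKM + 1 of each tested gene in control (horizontal, log axis) and in H3.3-KD (vertical, log axis), n = 3 libraries each, with the line of equal levels. Genes that rose (red, median control level 16.1 FPKM) lie mostly at the left, and genes that fell (blue, median 345 FPKM) mostly at the right.

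Composition moved with these changes. The genes that rose in H3.3-KD had a median GC content of 50.7% and a median length of 3103 bases in their longest annotated transcript, those that fell 46.2% and 1597 bases, and those that did not pass 45.8% and 3222 bases. Across the 63 genes, Spearman's rho of the H3.3-KD log2 fold change was 0.297 with GC content and 0.321 with length, against 0.337 and 0.184 across the 12816 tested genes with both values. Genes are not independent replicates, and these are descriptions. With the GC and length trend removed, 15 members were higher and 18 lower, and the part of composition in the changes was not tested further. *Prpf19* was 4.49 above the median log2 fold change of genes of like GC content (within 2 percentage points), *U2af2* 3.87 and *Sf3a2* 3.08, while *Lsm7* and *Lsm3* differed from theirs by -2.54 and -2.27. Pseudogene copies were found for 29 of the 65 genes, and 16 shared exon bases with another annotated gene.

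In MFN1-KD few members passed, on a median log2 fold change of -0.08 over all genes. Of the 63, 4 were higher at an adjusted p under 0.05 (6.35%, against 1.15% of all genes tested) and 2 were lower (3.17%, against 2.2%). With a change of over 2-fold and an unadjusted p under 0.05, 5 were higher (7.94%, against 5.02% of all genes) and 4 lower (6.35%, against 9.05%). The MFN1-KD libraries lay wholly above control for 7 members (11.1%, against 11.4% of all genes) and wholly below for 13 (20.6%, against 16.8%). All 6 calls were close to the threshold, with adjusted p from 0.0333 to 0.0494. Of the calls, 0 of the 4 higher and 0 of the 2 lower held under all 19 alternatives tried. Leaving out any one of the 9 libraries left 0 to 2 higher, and 0 or 1 lower except without MFN1-KD replicate 1, where 2 were lower. The second pair of counts depended on single libraries too: the higher members were 2 without control replicate 3 and 3 without MFN1-KD replicate 3. The lower ones were 8 once MFN1-KD replicate 2 was left out and 2 once replicate 3 was. Replicate 3 of MFN1-KD had the lowest value of its group for 40 of the 63 genes and the lowest of all 9 libraries for 20.

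*Srsf2*, an SR protein that regulates its own transcript, rose most. It was at 367, 262 and 193 FPKM in control, 714, 689.5 and 811 in MFN1-KD and 461, 324 and 444 in H3.3-KD. The MFN1-KD libraries were above all others, at 2.69 times the control mean (log2 fold change 1.47 ± 0.25 (SE), adjusted p = 0.0333). *Srsf2* shares 15.6% of its exon bases with *Mettl23* and 9.74% with *Mfsd11*, both on the opposite strand. *Srsf1* was at 238, 246 and 220.1 FPKM in MFN1-KD, above the controls given above (log2 fold change 1.11 ± 0.26 (SE), adjusted p = 0.0494). *Prpf3*, a protein of the U4/U6 particle, was at 35.2, 39.5 and 22.4 FPKM in control, 66.7, 68.9 and 75.1 in MFN1-KD and 36, 36.4 and 30.9 in H3.3-KD (log2 fold change 1.13 ± 0.26 (SE), adjusted p = 0.0466). The H3.3-KD libraries of *Prpf3* overlapped control, and the gene was lower in H3.3-KD than in MFN1-KD (log2 fold change -1.01, adjusted p = 0.0107). *Srsf2* over *Srsf7* was 0.332 ± 0.165 in control, 1.54 ± 0.703 in the MFN1-KD libraries and 1.12 ± 0.298 in those of H3.3-KD (SD, n = 3).

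*Lsm7* moved in opposite directions in the knockdowns, though its call in MFN1-KD was lost in 15 of the 19 alternatives (adjusted p up to 0.176). It was at 486, 652 and 539 FPKM in control, 1094, 923 and 1682 in MFN1-KD and 171, 192 and 135 in H3.3-KD, 3 ranges that did not overlap. Against control it rose in MFN1-KD (log2 fold change 1.10 ± 0.25 (SE), adjusted p = 0.0466) and fell in H3.3-KD (log2 fold change -1.75 ± 0.25 (SE), adjusted p = 0.000756), and the difference between the knockdowns was itself past the threshold (log2 fold change -2.85 in H3.3-KD against MFN1-KD, adjusted p = 4.63e-05). The falls in MFN1-KD were in *Snrpb* and *Sf3b5*. *Snrpb* (chr2:130171414-130179403) was at 200.2, 235 and 76.8 FPKM, with replicate 3 far below the other two, and all 3 were below control (log2 fold change -1.53 ± 0.36 (SE), adjusted p = 0.0479). *Sf3b5*, a small subunit of SF3b, was at 40.0, 53.7 and 56.2 FPKM in control, 25.7, 20.2 and 14.6 in MFN1-KD and 66.4, 46 and 56.9 in H3.3-KD (log2 fold change -1.29 ± 0.28 (SE), adjusted p = 0.0419). Other genes had fitted changes of like size that did not pass, among them *Lsm4* at 48, 56 and 6.11 FPKM (log2 fold change -1.74 ± 0.65 (SE), adjusted p = 0.148) and *Prpf31* at 29.7, 17.3 and 4.1 FPKM (log2 fold change -1.62 ± 0.53 (SE), adjusted p = 0.108), both lowest in replicate 3.

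**Figure D5:**
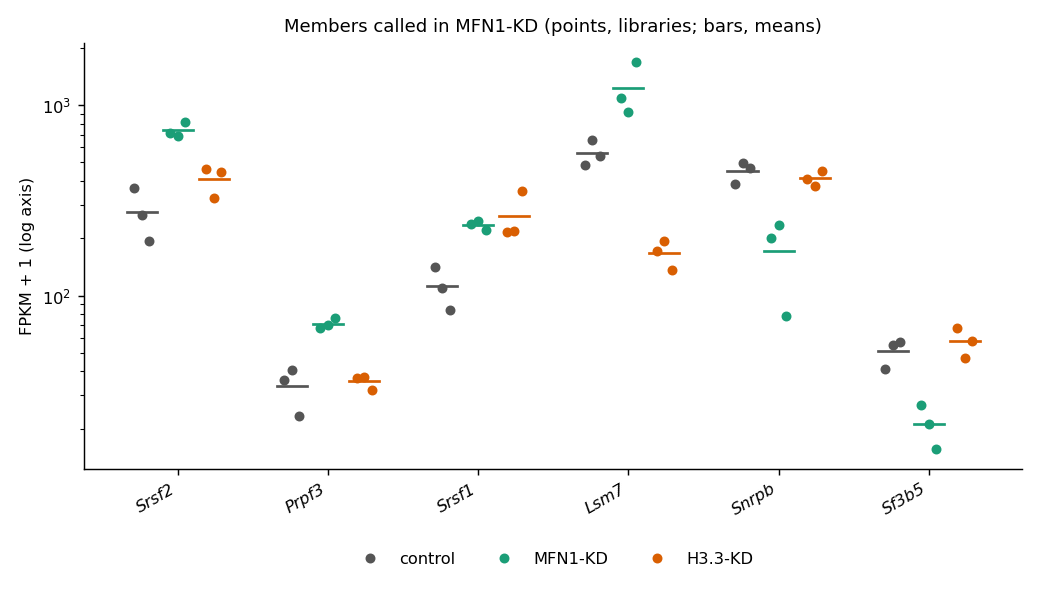
FPKM + 1 (log axis) in each library for the 6 members called in MFN1-KD (points, libraries; bars, means of 3). The green MFN1-KD points lie above the grey control points for *Srsf2*, *Prpf3*, *Srsf1* and *Lsm7* and below them for *Snrpb* and *Sf3b5*.

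Both knockdowns were compared with the same controls, so their changes against control are not independent of each other. Compared directly, 21 members were higher in H3.3-KD than in MFN1-KD (33.3%, against 27.6% of all genes tested) and 18 were lower (28.6%, against 11%), on a median of 0.39 over all genes. *Sf3a2* is one of the 21, and it was tested only because of its H3.3-KD libraries, so it had to be higher. The balance turned with the scaling: 15 were higher and 26 lower under median-ratio scaling, and 14 and 27 under upper-quartile scaling. The median over all genes moved too, to 0.07 and 0.01, and the shares of all genes called under these scalings are not given. *Prpf19*, *U2af2* and *Sf3b4* were higher in H3.3-KD, with log2 fold changes of 4.64, 3.49 and 3.63 (adjusted p from 1.63e-05 to 0.000131). *Lsm3*, *Lsm5*, *Snrpd2* and *Snrpf* were lower by log2 fold changes of -2.00, -1.92, -1.80 and -1.57 (adjusted p from 0.000151 to 0.00422). *Snrpb* and *Sf3b5*, which fell in MFN1-KD, were also higher in H3.3-KD than in MFN1-KD, by 1.41 and 1.46 (adjusted p = 0.011 and 0.00248). *Srsf1*, called higher in each knockdown, differed between them by only 0.12 ± 0.26 (SE, adjusted p = 0.751). Its call in MFN1-KD was lost in 14 of the 19 alternatives.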

How the data were processed

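Per the labels and the study's methods, the authors amplified RNA of pooled 8-cell embryos by Smart-Seq2, trimmed reads with cutadapt 1.16 and mapped them with STAR to mm10. The deposited values are FPKM, rounded to 2 decimals. The program that computed them, the annotation and the strand setting are not given in the sources used here, nor is depth, and no counts were used, so no counting interval is given. Values were transformed as log2(FPKM + 1), so fold changes of low genes are understated. The 13011 genes whose FPKM averaged 1 or more across the 9 libraries entered one limma 3.58.1 model (R 4.3.3, trend and robust options, no covariate) of all 3 groups. The model was also run on simulated data with independent noise for each gene and no library or GC effect. That run cannot speak to scaling, single libraries or GC content. Positions, lengths and GC content came from GENCODE M21 (all 65 genes matched), and pseudogene copies from blastn 2.17.0 (at least 90% identity over 150 bases). Named genes were the 6 largest rises and 6 largest falls per knockdown among called members with a mean of at least 10 FPKM and the highest control level of each class. Other members are given class by class. Results for some genes are not reported here. Members and lists were chosen with earlier results of these data known. Alternatives were 2 scalings, 2 filters, a pseudocount of 0.1, a replicate block, removal of each library's GC and length trend (splines with 5 degrees of freedom), library weights, the 6 libraries compared alone, and each library left out. For related genes, 8 hand-written lists were used.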

Additional observations from a re-analysis of the deposited data

How the results depend on the processing

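In MFN1-KD the 4 higher and 2 lower calls depended on the fit. At the adjusted p of limma, 0 members were higher and 0 lower without a filter on low values, with the fit restricted to the 6 libraries compared, with the replicate number as a block and with the replicate block plus removal of the GC and length trend. With a change of over 2-fold and an unadjusted p under 0.05 the same fits gave 5 higher and 4 lower, or 4 and 4 in the last. A pseudocount of 0.1 gave 1 higher and 1 lower, removal of the GC and length trend alone gave 1 lower, and leaving out a library gave 0 to 2 of either. The count of 5 at 2-fold was 2 with library weights and 2 to 6 without a library, and that of 4 was 2 to 8. In H3.3-KD the 20 higher members were 13 under median-ratio and 12 under upper-quartile scaling, and 13 to 20 without a library. The shares of all genes called under these alternatives are not given. The 21 members higher in H3.3-KD than in MFN1-KD were 12 with the GC and length trend removed and 11 with the replicate block as well. The labels tie the replicate numbers to nothing shared, and same-numbered libraries were not all correlated over 0.1 (r from -0.053 to 0.158), so the numbers were not taken as pairs. The highest r was with a library of the own number for 5 of 9 libraries. Under the replicate block H3.3-KD kept 18 higher and 20 lower calls.

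A called value changed sign in 1 case, *Snrnp70* in H3.3-KD (1.13 to -0.046 with the GC and length trend removed, with or without the replicate block). The other changes of sign were in values that did not pass. In MFN1-KD, *Lsm3* moved from -0.04 to 0.03 under median-ratio scaling, 0.02 under upper-quartile scaling and 0.24 with the trend removed, and *Sf3b6* from -0.05 to 0.013, 0.003 and 0.17. Removal of the trend gave 0.10 for *Sf3a2*, 0.073 for *Sf3b4* and 0.22 for *Snrnp25*, and library weights gave 0.14 for *Sf3b4*, -0.021 for *Snrnp35* and 0.45 for *Snrpc*. In H3.3-KD, *Prpf3* was at -0.22, -0.30 and -0.43 and *Sf3b5* at -0.17, -0.25 and -0.21 under the 2 scalings and removal of the trend. Without a library, values in MFN1-KD ran from -0.24 to 0.16 for *Lsm3*, -0.35 to 0.024 for *Lsm5*, -0.059 to 0.38 for *Prpf19*, -0.67 to 0.022 for *Sf3b4*, -0.22 to 0.048 for *Sf3b6*, -0.10 to 0.30 for *Snrnp35* and -0.37 to 0.32 for *Snrpc*, and in H3.3-KD from -0.12 to 0.28 for *Prpf3*. The causes were not tested. The narrower spread of the members' log2 levels in H3.3-KD (a difference in SD of -0.65 from control) was -0.78 with a pseudocount of 0.1, -0.60 for members with a mean of at least 10 FPKM and -0.73 to -0.57 without a library, alternatives chosen after seeing the data. All of these include *Sf3a2*, which was tested only through its H3.3-KD libraries. *Prpf19*, *Sf3a2* and *Snrnp35* passed the filter of 10 FPKM only through H3.3-KD, so that alternative is not free of the selection. The depth of the libraries is unknown, which limits most what can be said of genes under 1 FPKM.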

Other observations

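Splicing genes outside the rule were followed in 8 lists with 185 tested genes, chosen with earlier results of these data known. In H3.3-KD 79 of them were higher at the adjusted p of limma, 19 were lower and 87 did not pass, against 21.8% higher and 9.12% lower among all genes tested. Of those higher, *Scaf1* and *Zrsr1* passed the filter of 1 FPKM only through their H3.3-KD libraries, so they had to be higher. Their means were 0.733 and 0.76 FPKM in control, 0.103 and 0.827 in MFN1-KD and 3.62 and 3.44 in H3.3-KD. Of 27 hnRNP proteins, which bind nascent transcripts and often act against SR proteins, 18 were higher and 2 lower, with a median log2 fold change of 0.77 relative to all genes. *Raly* went from 1.9 ± 0.552 FPKM (SD, n = 3) in control to 70.3 ± 18.5 (log2 fold change 4.61 ± 0.33, adjusted p = 2.8e-05), and *Hnrnpab* from 257 ± 23.6 to 946 ± 67 (1.88 ± 0.18, adjusted p = 0.00012). Among 43 other splicing regulators 23 were higher and 0 lower. *Dazap1* rose from 1.43 ± 0.23 to 30.3 ± 2 FPKM (3.69 ± 0.31, adjusted p = 7e-05). Of 20 SR-related proteins and SR kinases 11 were higher, *Scaf1* among them, and 2 lower, with *Cherp* up (2.08 ± 0.27, adjusted p = 0.000488) and *Son*, a scaffold of nuclear speckles, down (-1.84 ± 0.22, adjusted p = 0.000325).

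The counts that follow are for H3.3-KD and stand against 21.8% higher and 9.12% lower of all genes tested. The exon junction complex had 5 higher and 5 lower of 14, with *Alyref*, an mRNA export adaptor, at 26.3 ± 8.65 FPKM in control and 254 ± 24.4 in H3.3-KD and *Sap18* at 548 ± 50.3 and 140 ± 27. The Prp19-related and catalytic-step proteins had 10 higher and 7 lower of 42, with *Bud31* down (-2.25 ± 0.20, adjusted p = 7.7e-05) and *Wbp11* up (2.08 ± 0.29, adjusted p = 0.000667). The SMN complex and snRNP assembly factors, which load the Sm ring onto snRNA, had 6 higher and 2 lower of 18. *Smn1* was at 49.5 ± 10.6 FPKM in control and 219 ± 15.1 in H3.3-KD (2.14 ± 0.28, adjusted p = 0.000462), and *Wdr77*, of the complex that methylates Sm proteins, rose as well (1.10 ± 0.20, adjusted p = 0.00238). The helicases had 4 higher and 0 lower of 12, and the minor spliceosome proteins outside the rule 2 higher, *Zrsr1* among them, and 1 lower of 9. In MFN1-KD 3 genes of the 8 lists were higher, against 1.15% of all genes (*Tra2a*, *Sfpq* and *Naf1*, log2 fold changes 1.64, 1.49 and 2.27) and 5 were lower, against 2.2% of all genes, among them *Hnrnpc* (-1.43 ± 0.23, adjusted p = 0.0296), *Cwc15* (-1.15 ± 0.21, adjusted p = 0.0334) and *Ppil1* (-1.18 ± 0.23, adjusted p = 0.0343).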
